A study of Mus musculus with 6 samples.

Results

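Peroxisomes are small organelles that shorten very long and branched fatty acids, start the synthesis of ether lipids such as the plasmalogens of myelin, and both make and destroy hydrogen peroxide. Their enzymes are made in the cytosol and imported already folded. Receptor proteins of the PEX family (peroxins) pick up an enzyme by a short targeting signal, dock at the membrane, release the cargo inside and are then marked with ubiquitin and pulled back out. In the brain, loss of import or of ether lipid enzymes causes the Zellweger spectrum and rhizomelic chondrodysplasia, and loss of fatty acid transport or oxidation causes leukodystrophies. The study followed peroxisome biogenesis as a pathway of genes with altered DNA or histone methylation after neonatal ethanol. The question here is what the transcripts of this pathway did in the same tissue.

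The 35 genes described here are a part of the pathway chosen by name, out of 19938 genes in all. They and 48 further peroxisome genes, described later, are read by single-symbol probe sets. Each of the 35 has 1 probe set, and all 35 symbols matched RefSeq. RNA came from the whole hippocampus of male C57BL/6J mice, 70 days old. Littermate pups had received ethanol at 2.5 g/kg in 0.15 M NaCl, or 0.15 M saline alone, under the skin, injected 2 times on postnatal day 4 and 2 times on day 7. Each array read the combined RNA of 3 mice from different litters. With 3 such pools per group, 18 mice stand behind 6 arrays, and n is 3 in each group. Values are log2 expression levels from Affymetrix Mouse Gene 1.0 ST arrays. They were normalized by the authors with RMA (robust multiarray averaging, which gives the single probes of all arrays one distribution before combining them). They rank no gene against another because each probe set has its own brightness.

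Marker transcripts of neighbouring tissue differed between the pools, and those of the thalamus also between the groups. Markers of hippocampal neurons (8 genes) lay within 0.05 of the saline mean in every pool, and none of the 8 was near background. Markers of the thalamus (16 genes), which lies beneath the hippocampus, had a mean of 0.716, 0.281 and 0.105 above that of saline in ethanol pools 1, 2 and 3, and markers of the choroid plexus (15 genes) were at 1.094, -0.278 and 0.655. Myelin markers (14 genes) were at -0.062, -0.183 and -0.034 in the same pools. At an unadjusted p under 0.05 in limma, 11 of the 16 thalamus markers and 3 of the 15 choroid plexus markers passed, all higher. Over all genes 2.8% were higher at that threshold. The thalamus list holds Tcf7l2 and Synpo2, which the study reports as raised on the same arrays and by droplet digital PCR. The marker lists were chosen with earlier results of these data known, so they are no independent test. In bulk tissue, a different number of cells of a type and a different amount of RNA per cell cannot be told apart.

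Peroxisome transcripts were at nearly the same level in both groups. Of the 35 genes, 16 had a mean above and 19 a mean below that of saline, and the median log2 change was -0.02, beside 0.0001 over all genes. The changes ran from -0.12 in Pex2 to 0.09 in Acox2. At an unadjusted p under 0.05 in limma 1 gene passed, Pex2, which was lower, where 5.22% of all genes passed, 2.8% higher and 2.41% lower. After Benjamini-Hochberg adjustment over all probe sets with a symbol 0 of 35 passed in limma (lowest adjusted p = 0.931), as did 0 of all genes. The precision was enough to bound most changes of the array signal. In all 35 genes the 95% confidence interval of the change lay within 1.2-fold, the threshold that the study used, which was true of 92% of all genes. The widest of these intervals, that of Hacl1, ran from 0.838 to 1.12 times the saline level, and the highest upper bound was 1.15 times, in Acox2. Acox2 is among 4 genes, with Dao, Pex11g and Pxmp2, at the level of olfactory and vomeronasal receptor genes defined below. At that level a narrow interval may not bound a change of the transcript. Among the 31 genes above it the highest upper bound was 1.14 times, in Gnpat. The methods name an ANOVA, which for a pair of groups is an equal-variance t-test on the spread of the gene itself, and it is called the methods' t-test below. It left 31 of the 35 within 1.2-fold, against 78.9% of all genes, the exceptions being Eci2, Amacr, Hacl1 and Slc27a2. Standard errors of the 35 changes ran from 0.037 to 0.091 on the log2 scale.

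**Figure D1:**
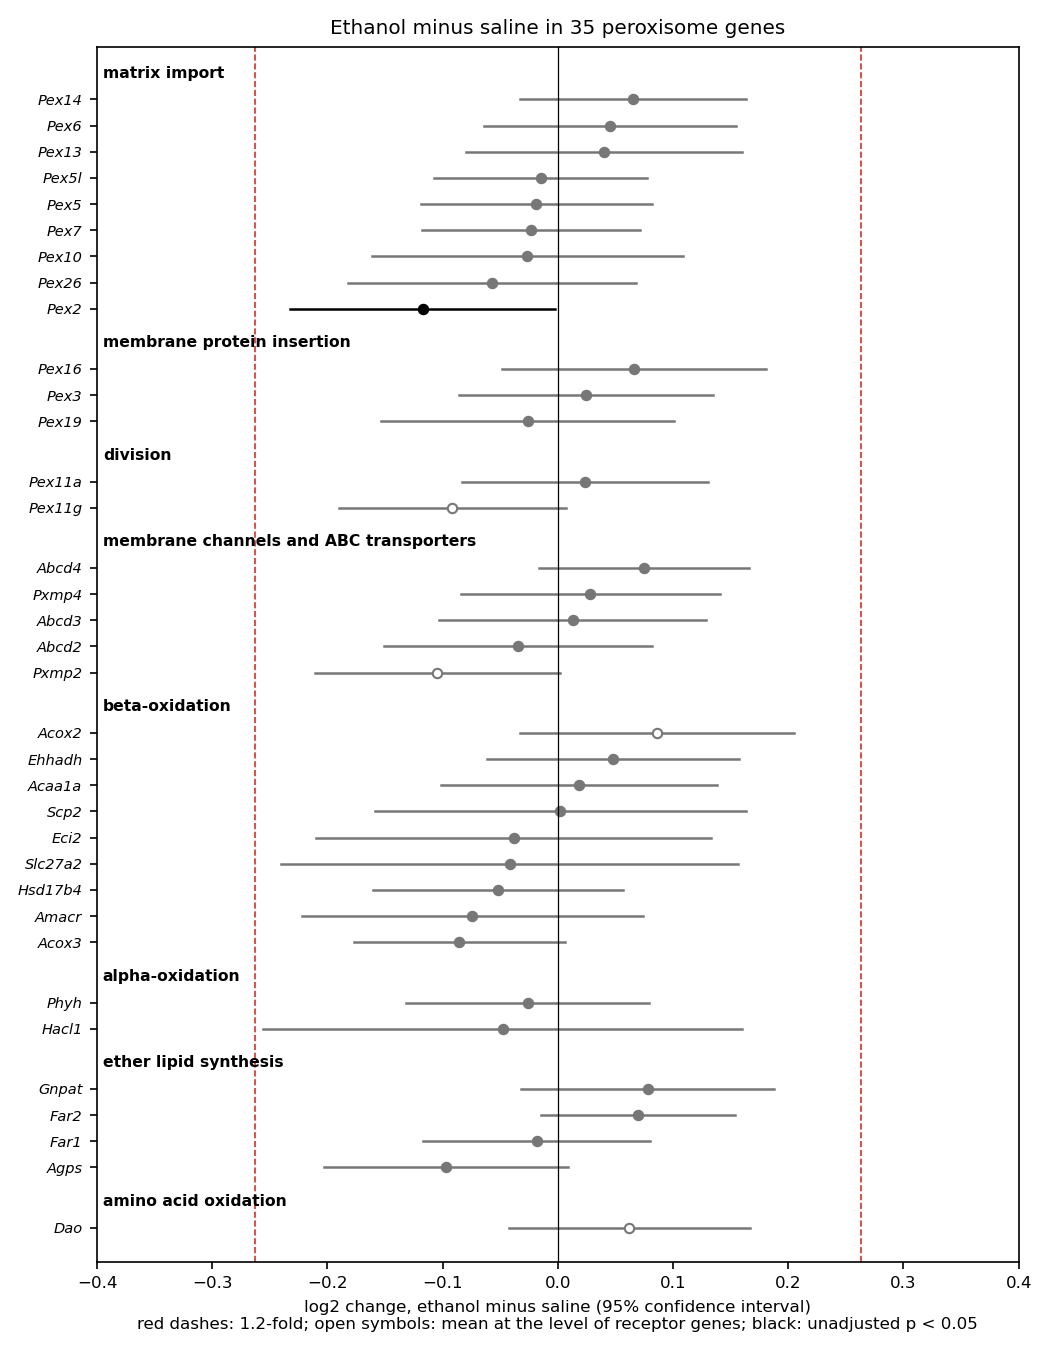
Log2 change (ethanol minus saline, points) of the 35 genes with its 95% confidence interval (lines), grouped by role; dashed lines mark 1.2-fold. Each interval lies between the dashed lines, Pex2 is the 1 gene whose interval does not reach 0, and open symbols mark the 4 genes at the level of receptor genes.

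The study's text names 5 of the 35 genes as methylation-affected, Acaa1a, Eci2, Pex6, Pex26 and Pxmp2. Their start-site regions are shown because CpG dinucleotides, printed in capitals, are where most DNA methylation sits. They are the 250 bases before the RefSeq start in build GRCm38.p6, read 5′ to 3′ on the gene's strand, for the 4 of these genes with an entry in the RefSeq promoter table. The CpGs that the study assayed in Acaa1a and Pex6 lie outside these regions. The study called the 5 genes on arrays. Its pyrosequencing of Acaa1a, Pex6 and Pxmp2 found a significant decrease at a CpG just downstream of the array region of Acaa1a. No other change in these genes reached significance there. The study's pathway list joined genes with altered DNA methylation and genes with altered histone methylation. Methylation itself was not analysed here.
Acaa1a, chr9:119341044-119341293, plus strand: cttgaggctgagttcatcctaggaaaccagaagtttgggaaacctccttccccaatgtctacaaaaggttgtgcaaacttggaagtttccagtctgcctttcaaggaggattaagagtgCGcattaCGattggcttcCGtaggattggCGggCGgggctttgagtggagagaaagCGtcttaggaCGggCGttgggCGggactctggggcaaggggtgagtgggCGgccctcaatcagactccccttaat
Pex6, chr17:46711226-46711475, plus strand: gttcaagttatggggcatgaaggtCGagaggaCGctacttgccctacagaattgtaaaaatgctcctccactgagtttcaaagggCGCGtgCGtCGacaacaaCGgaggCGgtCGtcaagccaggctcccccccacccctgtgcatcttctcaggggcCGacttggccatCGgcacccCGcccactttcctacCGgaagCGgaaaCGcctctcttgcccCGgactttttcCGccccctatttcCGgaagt
Pex26, chr6:121183417-121183666, plus strand: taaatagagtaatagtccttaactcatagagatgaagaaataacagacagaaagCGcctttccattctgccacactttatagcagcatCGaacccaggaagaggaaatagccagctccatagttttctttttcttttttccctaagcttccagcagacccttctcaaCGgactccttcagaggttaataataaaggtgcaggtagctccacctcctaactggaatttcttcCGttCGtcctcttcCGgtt
Eci2, chr13:34994145-34994394, minus strand: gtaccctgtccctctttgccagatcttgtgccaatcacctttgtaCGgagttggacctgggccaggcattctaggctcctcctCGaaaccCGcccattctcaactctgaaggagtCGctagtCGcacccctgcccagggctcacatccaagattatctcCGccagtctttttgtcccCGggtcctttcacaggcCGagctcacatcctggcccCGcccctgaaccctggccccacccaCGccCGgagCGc
These 4 regions hold 10, 18, 6 and 12 CpGs.

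Import of matrix enzymes is the role under which 9 of the genes are grouped, counting Pex5l, a relative of an import receptor. Of these 9, 1 gene, Pex2, passed the unadjusted threshold. Pex2 is one of the ring-finger ubiquitin ligases that mark a receptor for its return to the cytosol. Its log2 levels were 7.25, 7.35 and 7.37 in saline pools 1, 2 and 3 and 7.28, 7.17 and 7.17 in ethanol pools 1, 2 and 3. The groups overlapped, since saline pool 1 lay below ethanol pool 1. The log2 change was -0.12 ± 0.05 (SE), or 0.922 times the saline level, with an adjusted p = 0.931 in limma. The methods' t-test and the fit with the replicate number as a block did not call Pex2, and neither did the fits without 1 of saline pools 2 and 3 or ethanol pools 2 and 3, where its change ran from -0.10 to -0.09. It passed at -0.15 without saline pool 1 and at -0.15 without ethanol pool 1.

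Pex10 is a partner ligase of Pex2. Its levels were 8.30, 8.50 and 8.50 in the saline pools and 8.37, 8.41 and 8.44 in the ethanol pools, a change of -0.03 ± 0.06. The ethanol values all lay inside the saline range, between saline pool 1 and the other saline pools. Pex10 had the largest SD within a group among the import genes, 0.11 in saline.

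Pex6 is an ATPase that pulls the marked receptor out of the membrane, and Pex26 is the anchor that holds it there. Both are in the study's methylation-affected pathway. Pex6 was at 7.92, 7.91 and 7.98 in saline and at 7.94, 7.94 and 8.07 in ethanol pools, with a change of 0.05 ± 0.05. Pex26 was at 6.54, 6.34 and 6.42 in saline and at 6.39, 6.34 and 6.38 in ethanol pools, with a change of -0.06 ± 0.05. Pex6 ran from 0.0035 without ethanol pool 3 to 0.067 without ethanol pool 2, and Pex26 from -0.0036 without saline pool 1 to -0.10 without saline pool 2. In both genes the groups overlapped, and the 95% intervals ran from 0.957 to 1.11 and from 0.881 to 1.05 times the saline level. The receptor Pex5, which carries enzymes with a C-terminal signal, was at -0.02 ± 0.04, and the receptor Pex7, which carries the few with an N-terminal signal, was at -0.02 ± 0.04. Pex13 and Pex14, the docking proteins, were at 0.04 ± 0.05 and 0.07 ± 0.04. Pex5l is a brain relative of Pex5 that binds HCN pacemaker channels, and its change was -0.01 ± 0.04, with one of the narrowest intervals of the group (0.928 to 1.06 times the saline level).

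Insertion of membrane proteins depends on Pex3, Pex16 and Pex19, and 0 of these 3 passed the unadjusted threshold in limma. Pex19, the chaperone that brings membrane proteins from the cytosol, was at 9.95, 10.13 and 10.08 in saline and at 10.05, 9.96 and 10.06 in ethanol pools. Its change was -0.03 ± 0.06, and saline pool 1 was again the lowest of the 6. Pex16, which recruits Pex3 to the membrane, was at 9.07, 9.14 and 9.17 in saline and at 9.17, 9.13 and 9.27 in ethanol pools, a change of 0.07 ± 0.05. Pex3, the docking site for Pex19, was at 0.02 ± 0.05.

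Division of the organelle is promoted by the PEX11 proteins, which bend its membrane. Pex11g was at 5.26, 5.27 and 5.28 in saline and at 5.18, 5.12 and 5.24 in ethanol pools. All ethanol pools lay below all saline pools, with a gap of 0.022 between the nearest, and the saline pools lay closer together (SD 0.01) than the ethanol pools (SD 0.06). The change was -0.09 ± 0.04 and did not pass the unadjusted threshold in limma, though it did with quantile normalization, with array weights and without ethanol pool 3 (-0.12). The level of Pex11g was that of olfactory and vomeronasal receptor genes, whose 95th percentile of 5.36 is taken here as the level that a gene shows when the tissue is not known to use it. Pxmp2, Acox2 and Dao also lay below it and 31 genes lay above. Pex11a, which responds to fatty acid signals in liver, was at 0.02 ± 0.05.

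In 7 of the 35 genes (20%) the 3 ethanol pools lay all above or all below the 3 saline pools, where 10.4% of all genes did, and each gap was small. None of these 7 passed the unadjusted threshold in limma. Lower in every ethanol pool were 4 genes, Acox3, Agps, Pex11g and Pxmp2, as in 5.09% of all genes, and higher were 3, Abcd4, Far2 and Gnpat, as in 5.35% of all genes. The gaps ran from 0.003 in Pxmp2 to 0.044 in Far2, against a median SD within a group of 0.062 in saline and 0.046 in ethanol over the 35 genes. Of the 7 genes, 3 act in ether lipid synthesis, and they did not go the same way.

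**Figure D2:**
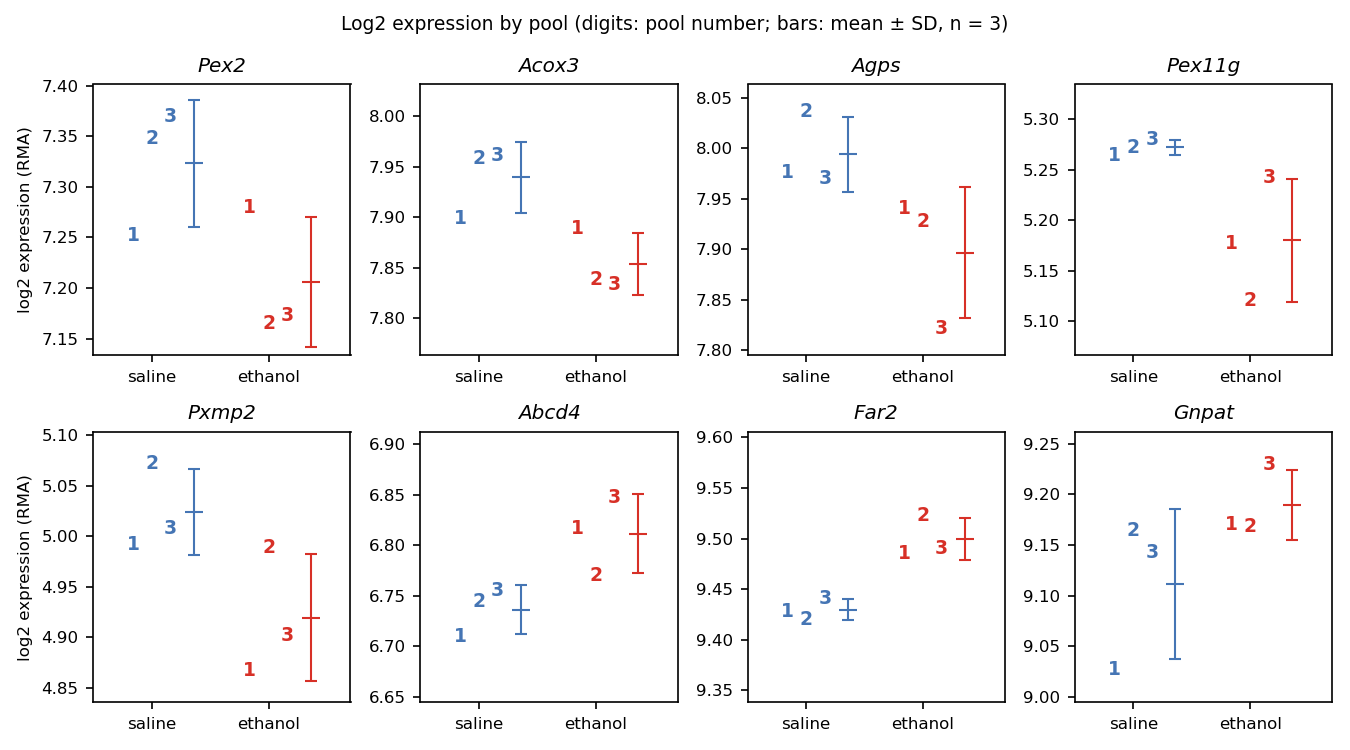
Log2 expression (vertical axis, the same span in each panel) in each pool, shown by its number, with mean ± SD of 3 pools, for Pex2 and the 7 genes whose groups did not overlap. Saline pool 1 lies among the ethanol pools in Pex2, and Far2 shows the widest gap between the groups, 0.044.

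Ether lipids begin with an acyl group that Gnpat places on dihydroxyacetone phosphate. Its neighbour Agps then swaps that group for a fatty alcohol, which Far1 or Far2 has made by reducing a fatty acyl-CoA. Gnpat was at 9.03, 9.16 and 9.14 in saline and at 9.17, 9.17 and 9.23 in ethanol pools, a change of 0.08 ± 0.05. The difference rested on saline pool 1, without which it was 0.04. Agps was at 7.98, 8.04 and 7.97 in saline and at 7.94, 7.93 and 7.82 in ethanol pools, a change of -0.10 ± 0.05. Agps thus lay below the saline range and Gnpat above it in the same 3 pools. Far2 was at 9.43, 9.42 and 9.44 in saline and at 9.48, 9.52 and 9.49 in ethanol pools. The SD was 0.01 in saline and 0.02 in ethanol, and the larger of these was lower than the larger SD of any other of the 35 genes. The change of 0.07 ± 0.04 did not pass in limma but passed in the methods' t-test. Far1 was at -0.02 ± 0.04.

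Membrane transport is served by the ABC half-transporters Abcd2, Abcd3 and Abcd4 and by the membrane proteins Pxmp2 and Pxmp4. Pxmp2, a channel for small metabolites and part of the study's methylation-affected pathway, was at 4.99, 5.07 and 5.01 in saline and at 4.87, 4.99 and 4.90 in ethanol pools. Its change was -0.10 ± 0.05, which did not pass in limma as deposited but passed with the replicate number as a block, with quantile normalization and without ethanol pool 2 (-0.14). The level was that of receptor genes. Abcd4, which moves vitamin B12 out of lysosomes, was at 6.71, 6.74 and 6.76 in saline and at 6.82, 6.77 and 6.85 in ethanol pools, a change of 0.07 ± 0.04. Among the tests run, only the methods' t-test called it. Abcd3, a carrier of branched and dicarboxylic acids, was at 9.53, 9.62 and 9.62 in saline and at 9.55, 9.69 and 9.57 in ethanol pools, with the groups overlapping and a change of 0.01 ± 0.05. Abcd2, a carrier of very long chain acids, was at -0.03 ± 0.05.

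Beta-oxidation was represented by 9 genes, of which 0 passed the unadjusted threshold in limma. Acaa1a is the thiolase that cuts the shortened chain in the last step, and the study tested the methylation of its gene. It was at 6.73, 6.77 and 6.63 in saline and at 6.72, 6.67 and 6.80 in ethanol pools, with the groups overlapping. Its change was 0.02 ± 0.05, and the 95% interval ran from -0.10 to 0.14 on the log2 scale. Acaa1b is a close copy of this gene, so that probes may read both. Acaa1b was at the level of receptor genes, with a change of -0.02 ± 0.08.

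Eci2, the isomerase listed by the study under its older name Peci, was at 7.844, 7.999 and 8.112 in saline and at 8.025, 7.837 and 7.978 in ethanol pools. The pools of each group spread widely (SD 0.13 in saline and 0.10 in ethanol), and the change was -0.04 ± 0.08. Acox2 and Acox3 are the oxidases of the first step for branched chains. Acox3 was at 7.90, 7.96 and 7.96 in saline and at 7.89, 7.84 and 7.83 in ethanol pools, a change of -0.09 ± 0.04, and it passed in the methods' t-test, with array weights and without saline pool 1 (-0.11). Acox2, at the level of receptor genes, went the other way, with 4.60, 4.78 and 4.71 in saline and 4.81, 4.77 and 4.76 in ethanol pools and a change of 0.09 ± 0.05, which without saline pool 2 was 0.13 and passed the unadjusted threshold. Slc27a2, an acyl-CoA synthetase for very long chains, had the largest SD of all 35 genes, 0.18 in saline. Its levels were 6.50, 6.20 and 6.53 in saline and 6.37, 6.45 and 6.29 in ethanol pools. All 3 ethanol pools thus lay inside the saline range. Its change was -0.04 ± 0.09, and without saline pool 2 it was -0.15 and passed the unadjusted threshold.

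The other enzymes of the chain lay between these values. Hsd17b4 and Ehhadh, the bifunctional hydratase-dehydrogenases, were at -0.05 ± 0.05 and 0.05 ± 0.05. The sterol carrier thiolase Scp2 was at 0.00 ± 0.07, and Amacr, a racemase for branched chains, was at -0.07 ± 0.06. In Scp2 the spread came from ethanol pool 3, at 7.07 against 7.33 and 7.32 in ethanol pools 1 and 2.

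Alpha-oxidation, which removes 1 carbon from phytanic acid, had Phyh and Hacl1. Hacl1, the lyase, was at 7.04, 7.29 and 7.38 in saline and at 7.26, 7.05 and 7.25 in ethanol pools. One low pool in each group, saline pool 1 and ethanol pool 2, gave it the widest interval of the 35 genes. Its change was -0.05 ± 0.09, and Phyh, the hydroxylase, was at -0.03 ± 0.05. Dao, which oxidizes D-serine, was at the level of receptor genes and at 0.06 ± 0.05.

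Among the saline pools, pool 1 was low over much of the pathway. It held the lowest of the 6 values in 13 of the 35 genes (37.1%), where it did in 18.4% of all genes, and it lay below the mean of saline pools 2 and 3 in 29 of 35, against 10090 of all 19938 genes. The mean over the 35 genes was -0.040, 0.023 and 0.017 from their saline mean in saline pools 1, 2 and 3 and 0.003, -0.023 and -0.002 in ethanol pools 1, 2 and 3. All 3 ethanol pools thus lay between the saline pools. Glial markers moved with saline pool 1, at -0.053 for astrocytes (10 genes), -0.059 for oligodendrocytes (14 genes) and -0.076 for microglia (9 genes), while hippocampal neuron markers were at 0.003. These lists were also low in ethanol pool 2, at -0.073, -0.183 and -0.041, and in ethanol pool 1, at -0.028, -0.062 and -0.072, where the mean over the 35 genes was 0.003. Of the oligodendrocyte markers 4 passed the unadjusted threshold, all lower, where 2.41% of all genes passed lower. Of the astrocyte and microglial markers 0 passed. None of the glial markers was at the level of receptor genes. The part of glial content in the levels of the peroxisome genes was not tested. Without saline pool 1 the median change over the 35 genes was -0.01, and 2 genes passed the unadjusted threshold, Pex2 and Acox3, where 6.31% of all genes passed.

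**Figure D3:**
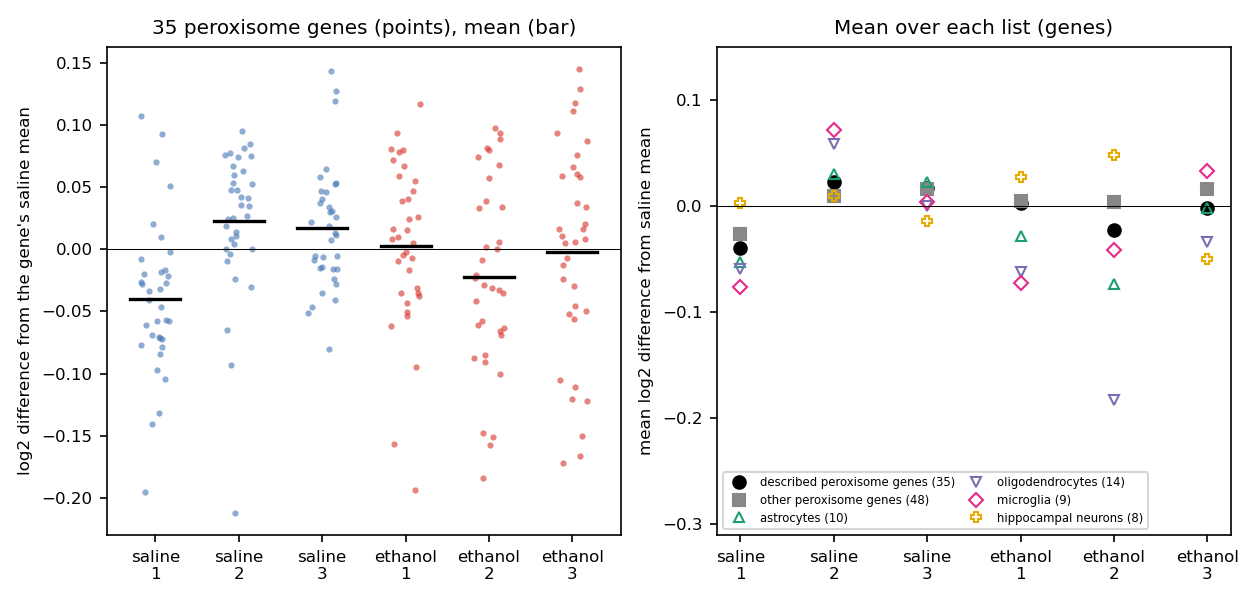
Left, log2 difference of each of the 35 genes from its saline mean in each pool (points) with the mean over the genes (bars); right, the mean difference of each list by pool, with the number of genes in the key. Saline pool 1 has the lowest mean of the 35 genes, at -0.040, and all ethanol pools lie between the saline pools.

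Of 58 further peroxisome genes listed, 48 had a probe set with 1 symbol, and 1 of these passed the unadjusted threshold and 0 the adjusted one in limma. This was Nudt7, a hydrolase that breaks down coenzyme A in the organelle. It was at 6.05, 6.20 and 6.17 in saline and at 6.30, 6.22 and 6.28 in ethanol pools, with no overlap and a change of 0.13 ± 0.05. Nudt7 was not called by the methods' t-test, nor without saline pool 1 (0.09) or 1 of ethanol pools 1 and 3. The largest change below saline was that of Xdh, a purine oxidase at the level of receptor genes (-0.08 ± 0.07). Xdh was at -0.16 and passed without ethanol pool 1, and was at -0.03 without ethanol pool 2. Nos2, a nitric oxide synthase that the study also names as differentially methylated, had a level like that of receptor genes and a change of 0.05 ± 0.05. The median over the 48 genes was 0.01, and saline pool 1 was the lowest of the pools in 17 of them (35.4%). Catalase (Cat), which destroys hydrogen peroxide, was at -0.02 ± 0.05. Of the 48 intervals 47 lay within 1.2-fold, the exception being that of Idh1, a cytosolic and peroxisomal source of NADPH (0.960 to 1.23 times the saline level).

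Of the 35 genes 27 have an entry in that table, with a region from 250 bases before to 50 after the start. Their median was 17 CpGs, against 15 over the 15614 genes of the array with an entry and 21 over those above the level of receptor genes. The lowest count was that of Acox2, with a mean of 3 over its regions, and the highest that of Abcd3, with 43.5. The GC box GGGCGG, sought on both strands, was in a region of 22 of the 27 genes, and in 52.9% of all genes or 68.6% of those above the level of receptor genes. The response element of peroxisome proliferator-activated receptors, as an exact direct repeat of AGGTCA with 1 base between the copies, on either strand, was in 0 of the 27 and in 0.0512% of all genes. The letters of a motif are a description of the window and show no binding. Pex6, with 22 CpGs in this longer region, and Pex26, with 7, had 95% intervals of the change that both lay within 1.2-fold.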

How the data were processed

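Hippocampal RNA of 3 saline and 3 ethanol pools was read on Affymetrix Mouse Gene 1.0 ST arrays. The authors combined the probes of each gene by RMA, and the deposited values are on the log2 scale and were used as they stand. The sources used here do not give the version of RMA or the genome build of the annotation. Values ran from 3.51 to 13.9. Of 35556 probe sets, 21789 have 1 gene symbol in the platform annotation, 1621 several and 12146 none. All 23410 with any symbol were fitted with lmFit and eBayes in limma 3.58.1 (R 4.3.3), two-sided, ethanol minus saline, with no covariate, since the methods name an ANOVA. P-values were adjusted over all 23410. For counts over all genes, each of 19938 genes was read by its brightest probe set. With 3 pools a group, exact permutation reaches no p below 0.1, and it was not used. Precision is limited by the 6 arrays. The fit was tested on simulated data.

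The 35 genes, the 58 further peroxisome genes and the marker lists were chosen with earlier results of these data known. Values of every pool are given for genes past the unadjusted threshold, for the 5 of the 35 that the study's text names as methylation-affected, and for the largest change and SD of each role. Abcd4, Acox3 and Far2 (groups without overlap), Scp2, Cat, Idh1 and Acaa1b were added after their values were seen. "The methods' t-test" is the equal-variance test of single probe sets, to which an ANOVA of a pair of groups amounts. The alternatives tried were that test, each array left out, a replicate block, array weights, an intensity trend, quantile normalization, centring on the median, floors at the median and the receptor level, every row, single-symbol rows alone, and averaging the probe sets of a gene. Promoter sequences are RefSeq's (GRCm38.p6). Protein sequences were not used here, so that the targeting signals of the enzymes are not described. Figures were drawn with matplotlib 3.10.9.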

Additional observations from a re-analysis of the deposited data

How the results depend on the processing

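Under all 17 alternatives 0 of the 35 genes passed after adjustment in limma or in the methods' t-test, and the median change over them stayed within the spread of the saline pools (-0.03 to 0.01 with an array left out). Genes past the unadjusted threshold numbered 3 in the methods' t-test (Abcd4, Acox3 and Far2; 5.04% of all genes), 3 with quantile normalization (Pex2, Pex11g and Pxmp2; 5.58%), 3 with array weights (Pex2, Pex11g and Acox3; 7.71%), 0 over all rows (3.79%) and 0 with an intensity trend (5.21%), and 0 to 2 with an array left out (3.65% to 6.31%). The replicate block kept the count at 1 but called Pxmp2 in place of Pex2. Same-numbered pools did not deviate together (correlations of -0.049, -0.022 and 0.059), so the numbers gave no sign of pairing. Between saline and ethanol pools of different numbers the correlations ran from -0.18 to 0.17. The highest for each saline pool fell on a different ethanol pool. They were 0.17 for saline 1 with ethanol 2, 0.081 for saline 2 with ethanol 3 and 0.13 for saline 3 with ethanol 1. Pairing under other numbers was not tested. No fit paired pools by litter. Of the further peroxisome genes 0 passed in the methods' t-test and with an intensity trend, 2 with array weights (Nudt7 and Idh1), and 0 to 1 with an array left out. Above the median level 0 passed too, but that floor had removed Nudt7 before the fit. Groups did not overlap in 4 of the 26 genes above the median level, where 9.08% of all genes did, and in 8 to 14 of 35 with an array left out, where 17.5% to 23.0% of all genes did. With an array left out the interval lay within 1.2-fold in 31 to 35 genes. Of 18 single genes followed under the alternatives, 7 changed sign, each only in leaving out a pool, where Acaa1a ran from -0.021 to 0.049, Eci2 from -0.11 to 0.025, Pex10 from -0.093 to 0.0070, Pex19 from -0.079 to 0.011, Abcd3 from -0.030 to 0.037, Slc27a2 from -0.15 to 0.018 and Hacl1 from -0.15 to 0.024. The causes were not tested.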
